A study of Homo sapiens with 7 samples.

Results

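Growth factor receptors with tyrosine kinase activity, their secreted ligands, and the adaptors, restraining proteins and PI3K-AKT genes that act next to them were followed as a set of 42 genes chosen by name, out of 60675 genes in the deposited table. The set held 15 receptors, 15 ligands, 4 negative regulators, 4 adaptors and 4 genes of PI3K and AKT, and each of the 42 was found in the table by symbol. RNA was sequenced from MDA-MB-231, an established human triple-negative breast cancer line labelled DEPDC1 WT with control siRNA (siCTL, n = 3 libraries) and DEPDC1 KD with siRNA against DEPDC1 (siDEPDC1, n = 4 libraries). Every sample had received 5 µl of 20 µM siRNA with Lipofectamine RNAiMAX, a change of medium after 8 h and harvest at 2 days, so the groups differ by the siRNA and share the transfection. The knockdown is transient and was made in a single line, and the siRNA sequence was not analysed here.

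A receptor tyrosine kinase is switched on when a ligand outside the cell brings receptor chains together, which then phosphorylate each other and become docking sites. Adaptors such as GRB2, SHC1 and GAB1 bind these sites and lead to RAS on one branch and to PI3K, which makes the membrane lipid that recruits AKT, on the other. In breast tissue the EGFR ligand amphiregulin drives growth of the ducts, and in triple-negative lines EGFR, MET and AXL are well-known surface receptors.

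DEPDC1 itself fell from 118 ± 3.20 CPM (counts divided by library size, in the usual CPM unit, scaled between libraries by edgeR's TMM factors; SD, n = 3) to 13.3 ± 1.43 CPM (n = 4) and was lower in each library labelled siDEPDC1. Library totals ran from 11704246 to 15360409 counts in siCTL and from 7690583 to 13483305 in siDEPDC1, and by exact permutation of the libraries, two-sided, the means differed with p = 0.114, where 0.0286 is the lowest reachable. Markers of the labelled line were present, with VIM at 3713 ± 166 CPM and CAV1 at 593 ± 27.4 CPM in siCTL. ESR1 and PGR, the hormone receptor genes that triple-negative cells lack, had 14 and 30 counts over all 7 libraries. ERBB2, listed with these as a gene that should be low, was at 64.5 CPM in siCTL. Of the luminal epithelial markers, KRT8 was at 740 CPM, EPCAM at 10.4, GATA3 at 6.71, CDH1 at 1.11 and ESRP1 at 0.302 in siCTL. A sum over 10 markers of leukocytes, endothelium, adipocytes and hepatocytes ran from 12.2 to 16.9 CPM in siCTL and from 11.9 to 14.9 CPM in siDEPDC1. PECAM1 made up most of it, and the other 9 together stayed at or under 2.87 CPM, with ADIPOQ at 0 counts. The labels do not say that replicates were separate cultures, so p-values rest on a spread between libraries that may be technical only.

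After DEPDC1 siRNA 15 members were lower and 11 higher among the 41 that were tested, that is 26 members past the threshold (edgeR, quasi-likelihood F test, p adjusted after Benjamini and Hochberg over 16583 genes, under 0.05). Among all tested genes 34.4% passed it, 17.9% lower and 16.5% higher. Members lie above the typical tested gene in level, with a median of 46.5 CPM against 19.3 CPM. Among genes with a mean of at least 10 CPM, 41.9% of 10352 genes and 21 of 33 members passed. The members were chosen with earlier results of these data known, so these shares describe the list and test no excess. The members moved in both directions, with a median log2 fold change of -0.046 against 0.00094 over all tested genes. Most changes were modest: the median absolute log2 fold change was 0.38 in called members and 0.37 in all called genes, and 1 of 26 called members, FGFR4, differed by at least 2-fold, against 435 of 5707 called genes (7.62%). Every siDEPDC1 library lay on one side of every siCTL library in 25 of the 41 tested members and in 37.3% of all tested genes. Among called genes this held for 24 of 26 members and for 4934 of 5707 genes. In bulk RNA a change in the number of cells that express a gene and a change in RNA per cell cannot be told apart. PDGFB, with 17 counts in all, was the member left out by the count filter.

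**Figure D1:**
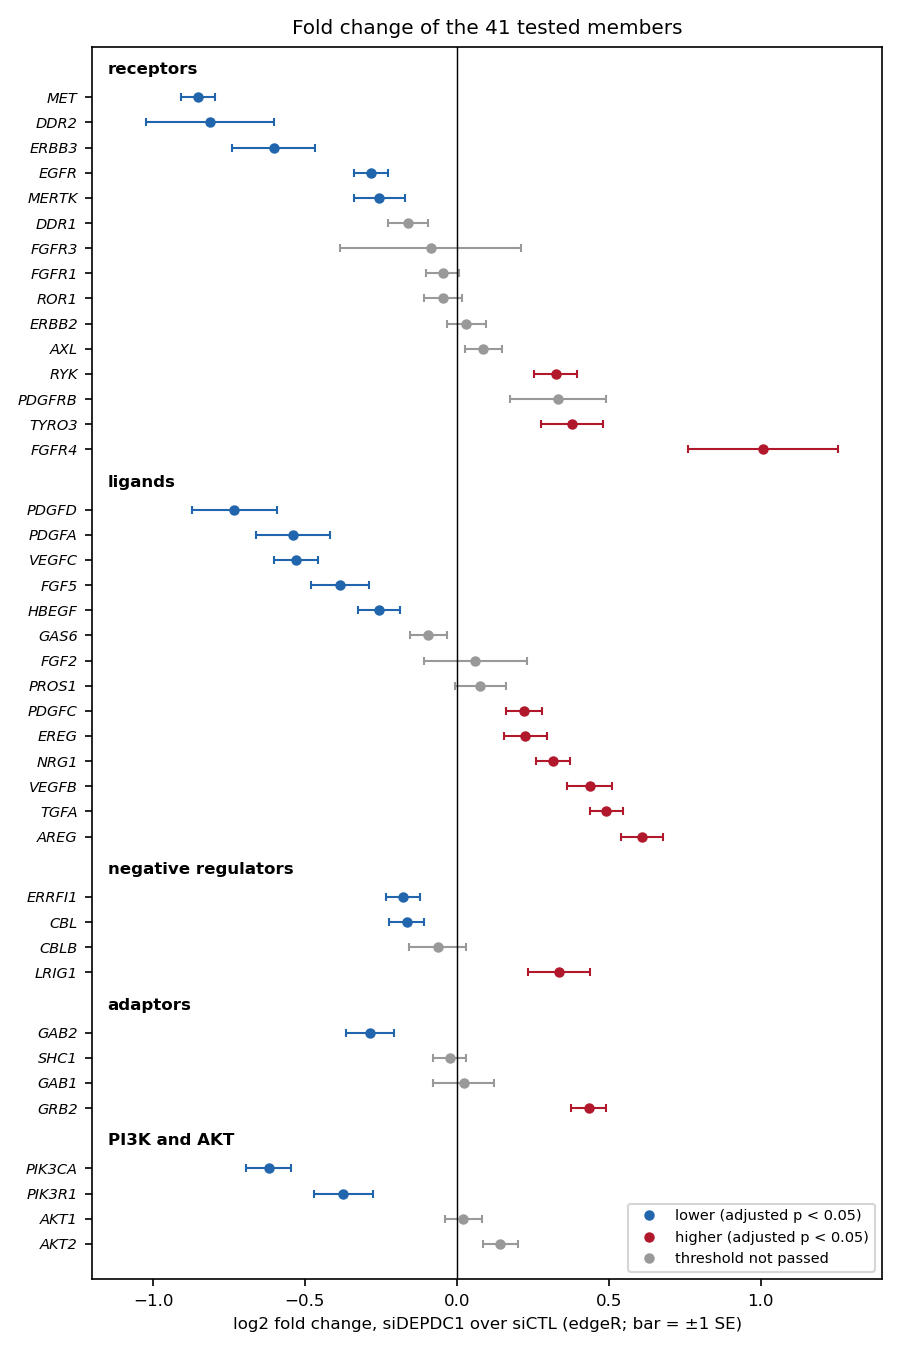
Log2 fold change of siDEPDC1 over siCTL for each of the 41 tested members, grouped by role, with bars of 1 SE from the edgeR fit. Blue marks the 15 lower members, red the 11 higher ones and grey the 15 that did not pass the threshold; MET is the lowest at -0.85 and FGFR4 the highest at 1.01.

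Of these members, 4 carry the 7-base word GATAACT in the 3' UTR of the annotated transcript that was searched (GENCODE release 29, GRCh38, transcript strand), and they are shown because each was lower in siDEPDC1. The word was taken up with earlier results of these data known, where it was frequent among genes that fell, so its presence is a description here and supports nothing. Capitals mark the word within at most 30 bases of transcript, 5′ to 3′.
MET: atatttttaaaGATAACTcagcatgtttgt
PIK3CA: aaaGATAACTgagaaaatgaaa
VEGFC: tgaaccatgtgGATAACTttacagaaatgg
PIK3R1: ttgcaacatctGATAACTtcatggcctttg
The MET copy lies on chromosome 7 at 116797229 to 116797235 in exon 21 of 21, and the PIK3CA copy on chromosome 3 at 179234368 to 179234374 in exon 21 of 21, starting at base 4 of its 3' UTR. The VEGFC copy lies on chromosome 4 at 176683784 to 176683790 in exon 7 of 7, and the PIK3R1 copy on chromosome 5 at 68300599 to 68300605 in exon 16 of 16. Log2 fold changes were -0.85 for MET, -0.62 for PIK3CA, -0.53 for VEGFC and -0.37 for PIK3R1. Carriers made up 4 of the 40 tested members that were searched (10.0%) and 949 of 12317 searched genes (7.70%). Among all those carriers 514 of 949 were lower, where 17.9% of all tested genes were. The median log2 fold change was -0.24 in these carriers against 0.014 in genes without the word. The other 11 lower members had no copy in the searched transcript, although 1 of 4 coding transcripts of ERRFI1 holds it. For the carriers it lies in 1 of 4 coding transcripts of MET and 1 of 5 of PIK3R1. It lies in 2 of 2 coding transcripts of PIK3CA and 1 of 1 of VEGFC. NRG1 was not searched.

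Among the 15 receptors 5 were lower, 3 higher and 7 did not pass the threshold. That is 53.3% called, where 34.4% of all tested genes were. MET, the receptor for hepatocyte growth factor (ENSG00000105976; GRCh38 chromosome 7, 116672390 to 116798386), was at 224, 221 and 220 CPM in the siCTL libraries and at 135, 120, 117 and 119 CPM in the siDEPDC1 libraries. The groups were far apart, and the first siDEPDC1 library was the highest of its group. MET fell from 222 ± 2.22 to 123 ± 7.99 CPM, a 1.81-fold change (log2 fold change -0.85 ± 0.057 SE, edgeR adjusted p = 2.6e-14). Its ligand gene HGF had 0 counts in each of the 7 libraries, where 3 counts would correspond to 0.197 to 0.391 CPM.

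EGFR (ENSG00000146648; chromosome 7, 55019021 to 55211628), the shared receptor for several EGF-like ligands, read 592, 533 and 560 CPM in siCTL and 494, 426, 463 and 465 CPM in siDEPDC1. All siDEPDC1 values were below the lowest siCTL value, and the fall was 1.22-fold, from 562 ± 29.4 to 462 ± 28.1 CPM (log2 fold change -0.28 ± 0.057 SE, edgeR adjusted p = 0.00018). EGFR-AS1, which lies on the opposite strand and shares 186 exon bases with EGFR, was lower as well (log2 fold change -0.35, edgeR adjusted p = 0.0029). With no strand setting stated for the counting, reads in the shared stretch, 1.49% of the exon bases of EGFR, cannot be assigned to either gene. ERBB3, a partner receptor with weak kinase activity that binds neuregulins, was at 8.03, 8.01 and 7.99 CPM in siCTL and 5.28, 4.64, 4.56 and 6.50 CPM in siDEPDC1. It fell 1.52-fold from 8.01 ± 0.0181 to 5.25 ± 0.899 CPM (log2 fold change -0.60 ± 0.14 SE, edgeR adjusted p = 0.00077), at a level far below that of EGFR per length of exon. ERBB2, the ligandless partner whose amplification defines another breast cancer class, had 64.5 ± 0.869 and 66.0 ± 4.14 CPM and did not pass the threshold (log2 fold change 0.032, edgeR adjusted p = 0.74).

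The TAM receptors, a family whose ligands are GAS6 and PROS1 and which takes part in the clearance of dying cells, went separate ways. AXL had the highest level per exon length of the 42 members, at 212 ± 14.8 CPM per kb in siCTL and 225 ± 13.2 in siDEPDC1, and its log2 fold change of 0.088 did not pass the threshold (edgeR adjusted p = 0.27). MERTK read 21.7, 24.5 and 23.1 CPM in siCTL against 18.1, 20.0, 18.9 and 20.3 CPM in siDEPDC1, with no overlap. It fell from 23.1 ± 1.38 to 19.3 ± 1.01 CPM (log2 fold change -0.26 ± 0.083 SE, edgeR adjusted p = 0.016). The call was lost without siCTL replicate 2 (adjusted p = 0.12) and with DESeq2 (adjusted p = 0.060). TYRO3 read 13.2, 12.4 and 12.6 CPM in siCTL and 13.9, 17.7, 15.5 and 18.6 CPM in siDEPDC1. TYRO3 rose 1.30-fold from 12.7 ± 0.406 to 16.4 ± 2.13 CPM (log2 fold change 0.38 ± 0.10 SE, edgeR adjusted p = 0.0041), and its first siDEPDC1 library lay just above the siCTL values.

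Receptors for FGF and PDGF were mostly at low levels. FGFR1, the main FGF receptor here, was at 225 ± 8.71 and 218 ± 9.40 CPM (log2 fold change -0.047, edgeR adjusted p = 0.55). FGFR4 was at 1.33, 1.38 and 1.22 CPM in siCTL and 2.45, 3.17, 1.56 and 3.03 CPM in siDEPDC1, from 14 to 21 counts and 12 to 43 counts a library. All siDEPDC1 values were above siCTL, with the third library close to it. FGFR4 rose from 1.31 ± 0.0827 to 2.55 ± 0.729 CPM (log2 fold change 1.01 ± 0.25 SE, edgeR adjusted p = 0.0017). FGFR3, at 1.16 ± 0.117 and 1.06 ± 0.258 CPM, and PDGFRB, at 4.17 ± 0.622 and 5.22 ± 0.609 CPM, did not pass the threshold (edgeR adjusted p = 0.86 and 0.10).

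The discoidin receptors DDR1 and DDR2 are activated by collagen rather than by a soluble factor. DDR2 was at 2.87, 2.95 and 4.34 CPM in siCTL and 1.96, 1.99, 1.69 and 1.87 CPM in siDEPDC1, with the third siCTL library well above the others. DDR2 fell 1.76-fold from 3.39 ± 0.827 to 1.88 ± 0.132 CPM (log2 fold change -0.81 ± 0.21 SE, edgeR adjusted p = 0.0027) on 13 to 50 counts a library. DDR1, the more abundant of the pair per exon length, was at 74.4 ± 4.47 and 66.5 ± 5.68 CPM, and missed the threshold (log2 fold change -0.16, edgeR adjusted p = 0.061). DDR1 stayed uncalled under 11 of the 15 alternatives and passed under the rest. Among these, it passed when siDEPDC1 replicate 4 was left out, at -0.21 (edgeR adjusted p = 0.013), and when siCTL replicate 3 was, at -0.20 (adjusted p = 0.030). The fit without siDEPDC1 replicate 4 is counted under both of its names, the other being the libraries numbered 1 to 3 with no replicate block. RYK and ROR1 are receptors of WNT proteins with kinase-like domains. RYK read 35.6, 36.2 and 39.3 CPM in siCTL and 46.2, 48.3, 45.8 and 44.6 CPM in siDEPDC1, so that it rose 1.25-fold with no overlap, from 37.0 ± 1.98 to 46.2 ± 1.53 CPM (log2 fold change 0.33 ± 0.070 SE, edgeR adjusted p = 0.00040). ROR1, at 69.7 ± 4.11 and 67.6 ± 3.21 CPM, did not pass the threshold (edgeR adjusted p = 0.62).

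The 5 EGF family ligands among the members passed the threshold, 4 higher and 1 lower, where 34.4% of all tested genes did. Of the other ligands of this family, which were followed outside the members and lay at low levels, BTC, NRG2 and NRG4 did not pass (edgeR adjusted p = 0.75, 0.91 and 0.43), and EPGN and NRG3 had too few counts to test. EGF was higher, at 2.34 and 3.36 CPM (log2 fold change 0.53, edgeR adjusted p = 0.031). The EGF call was lost without siCTL replicate 2 (adjusted p = 0.14), without siCTL replicate 3 (0.059), and without siDEPDC1 replicate 2 (0.091), replicate 3 (0.056) or replicate 4 (0.058). AREG, amphiregulin (ENSG00000109321; chromosome 4, 74445134 to 74455009), was at 75.1, 78.4 and 88.9 CPM in siCTL and 119, 138, 121 and 113 CPM in siDEPDC1. Its lowest siDEPDC1 value was well above the highest siCTL value, and it rose 1.53-fold from 80.8 ± 7.17 to 123 ± 10.9 CPM (log2 fold change 0.61 ± 0.068 SE, edgeR adjusted p = 7.0e-09). TGFA, transforming growth factor alpha (ENSG00000163235; chromosome 2, 70447280 to 70554193), read 127, 127 and 133 CPM in siCTL and 181, 177, 184 and 185 CPM in siDEPDC1. Libraries of a group lay close together, and TGFA rose 1.41-fold from 129 ± 3.21 to 182 ± 3.63 CPM (log2 fold change 0.49 ± 0.055 SE, edgeR adjusted p = 6.7e-09). NRG1, neuregulin 1, which binds ERBB3 and ERBB4, read 189, 180 and 203 CPM in siCTL and 242, 239, 240 and 229 CPM in siDEPDC1. NRG1 rose 1.25-fold without overlap, from 191 ± 11.5 to 237 ± 5.73 CPM (log2 fold change 0.32 ± 0.056 SE, edgeR adjusted p = 2.6e-05).

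EREG, epiregulin, whose gene lies next to AREG on chromosome 4 (74365143 to 74388751), had a smaller rise and its groups overlapped, with 53.5 to 67.5 CPM in siCTL and 64.9 to 75.1 CPM in siDEPDC1. The log2 fold change was 0.23 ± 0.072 (SE, edgeR adjusted p = 0.014), and the adjusted p was 0.15 without siCTL replicate 1, 0.071 without siCTL replicate 2 and 0.052 without siDEPDC1 replicate 2. HBEGF, the heparin-binding ligand of EGFR, went the other way, from 51.2, 51.0 and 56.5 CPM to 41.5, 47.7, 43.8 and 43.6 CPM, with no overlap. HBEGF fell 1.19-fold from 52.9 ± 3.10 to 44.1 ± 2.61 CPM (log2 fold change -0.26 ± 0.070 SE, edgeR adjusted p = 0.0043). Summed over the 5 ligands, siCTL libraries held 496, 494 and 548 CPM and siDEPDC1 libraries 658, 674, 653 and 636 CPM, a ratio of means of 1.28 that is given as a description. In the siDEPDC1 libraries EGFR, ERBB3 and HBEGF thus lay below every siCTL library and AREG, TGFA and NRG1 above, while EREG overlapped.

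**Figure D2:**
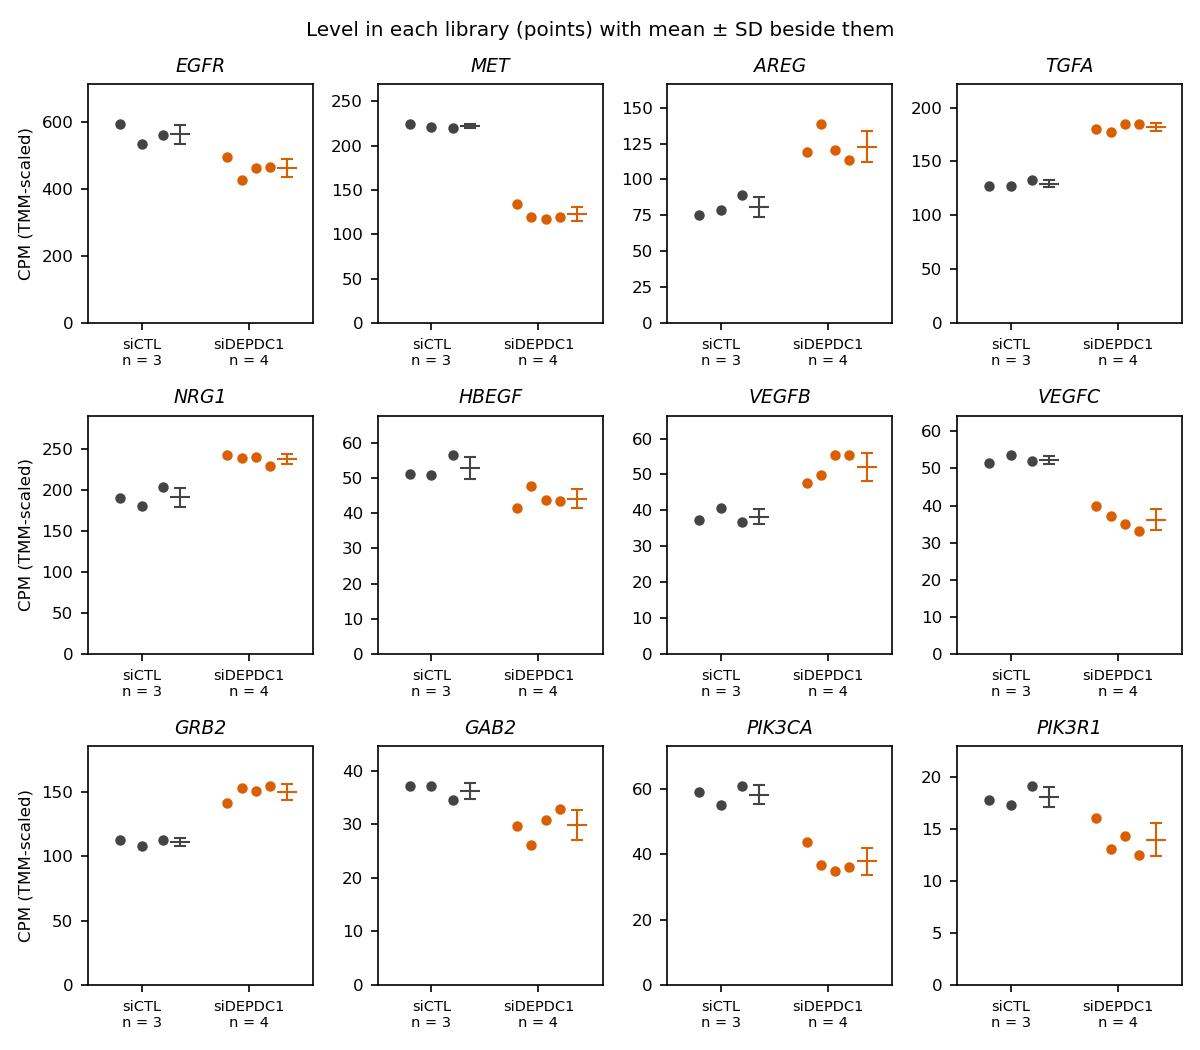
TMM-scaled CPM of 12 members in each of the 3 siCTL and 4 siDEPDC1 libraries (points) with the mean and SD beside them; each vertical axis starts at 0. In every panel the siDEPDC1 points lie on one side of the siCTL points: above for AREG, TGFA, NRG1, VEGFB and GRB2, below for EGFR, MET, HBEGF, VEGFC, GAB2, PIK3CA and PIK3R1.

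The 2 VEGF ligands among the members moved in opposite directions, and VEGFA, given below with the other ligands, was higher. VEGFB, which binds the endothelial receptor FLT1, read 37.3, 40.8 and 36.8 CPM in siCTL and 47.6, 49.9, 55.4 and 55.3 CPM in siDEPDC1. VEGFB rose 1.35-fold from 38.3 ± 2.15 to 52.0 ± 3.91 CPM, with no overlap (log2 fold change 0.44 ± 0.073 SE, edgeR adjusted p = 1.2e-05). VEGFC, a driver of lymphatic vessel growth (ENSG00000150630; chromosome 4, 176683538 to 176792727), read 51.4, 53.6 and 52.0 CPM in siCTL and 39.8, 37.1, 34.9 and 33.1 CPM in siDEPDC1. It fell 1.44-fold from 52.3 ± 1.10 to 36.2 ± 2.91 CPM (log2 fold change -0.53 ± 0.071 SE, edgeR adjusted p = 3.2e-07). The CPM ratio of VEGFB to VEGFC ran from 0.708 to 0.761 in siCTL, with mean 0.731, and up to 1.67 in siDEPDC1, with mean 1.45 ± 0.219, and the groups did not overlap. The receptor genes FLT1 and FLT4, looked up after these values were seen, had 34 and 0 counts over the 7 libraries. KDR, a further VEGF receptor gene, had 245 counts, at 2.68 CPM in siCTL and 3.29 CPM in siDEPDC1. It did not pass the threshold (edgeR adjusted p = 0.31).

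Of the 3 tested PDGF ligands 2 were lower and 1 higher, where 34.4% of all tested genes passed the threshold. PDGFA read 10.3, 9.78 and 10.9 CPM in siCTL and 6.26, 8.25, 6.25 and 7.13 CPM in siDEPDC1, a 1.45-fold fall without overlap, from 10.3 ± 0.584 to 6.97 ± 0.945 CPM (log2 fold change -0.54 ± 0.12 SE, edgeR adjusted p = 0.00069). PDGFD, which signals through PDGFRB after proteolytic activation, read 7.66, 8.07 and 9.82 CPM against 6.16, 4.93, 4.82 and 4.45 CPM. PDGFD fell 1.66-fold from 8.52 ± 1.14 to 5.09 ± 0.742 CPM (log2 fold change -0.73 ± 0.14 SE, edgeR adjusted p = 9.2e-05). PDGFC, the most abundant PDGF per exon length in both groups, rose from 78.4 ± 3.77 to 91.4 ± 1.56 CPM (log2 fold change 0.22 ± 0.059 SE, edgeR adjusted p = 0.0035), with no overlap. PDGFB had 1 to 2 counts in each siCTL library and 1 to 6 counts in each siDEPDC1 library, too few for a test. Their receptor genes are PDGFRB, given above, and PDGFRA, which had 3 counts in all.

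FGF5, a secreted FGF, read 19.7, 16.9 and 19.6 CPM in siCTL and 15.6, 14.0, 14.8 and 13.1 CPM in siDEPDC1. It fell 1.30-fold with no overlap, from 18.7 ± 1.57 to 14.4 ± 1.06 CPM (log2 fold change -0.38 ± 0.095 SE, edgeR adjusted p = 0.0017). FGF2, basic FGF, was at 3.65 ± 0.351 and 3.85 ± 0.339 CPM and did not pass the threshold (edgeR adjusted p = 0.82). FGF2 shares 804 exon bases, 11.9% of its own, with NUDT6 on the opposite strand, so its counts may hold reads of that gene. The TAM ligands did not pass the threshold either. GAS6 was at 414 ± 36.4 and 388 ± 23.8 CPM and PROS1 at 23.5 ± 2.32 and 24.7 ± 1.40 CPM (edgeR adjusted p = 0.24 and 0.51), and GAS6 shares 421 exon bases with the opposite-strand gene GAS6-AS1.

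Negative regulators bind receptors and end their signal, and 2 of these 4 were lower and 1 higher. Over all tested genes 34.4% passed the threshold. ERRFI1, an inhibitor that binds the EGFR kinase domain, fell 1.13-fold from 392 ± 17.3 to 346 ± 20.1 CPM without overlap (log2 fold change -0.18 ± 0.056 SE, edgeR adjusted p = 0.013). Its adjusted p was 0.070 without siCTL replicate 2, 0.051 without siCTL replicate 3 and 0.082 without siDEPDC1 replicate 3. CBL, the ubiquitin ligase that sends active receptors for degradation, fell 1.12-fold (log2 fold change -0.16 ± 0.058 SE, edgeR adjusted p = 0.025). Its groups overlapped, with 156 to 170 CPM in siCTL and 140 to 157 CPM in siDEPDC1. Its adjusted p was 0.099 without siCTL replicate 1, 0.10 without siCTL replicate 3, 0.10 without siDEPDC1 replicate 2 and 0.098 without siDEPDC1 replicate 3. CBL also shares 509 exon bases with MCAM on the opposite strand, which was lower too (log2 fold change -0.32, edgeR adjusted p = 2.6e-05).

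LRIG1, a membrane protein that promotes turnover of EGFR family receptors, read 11.6, 10.5 and 12.2 CPM in siCTL and 15.4, 13.3, 14.3 and 14.7 CPM in siDEPDC1. It rose 1.26-fold with no overlap, from 11.4 ± 0.849 to 14.4 ± 0.879 CPM (log2 fold change 0.34 ± 0.10 SE, edgeR adjusted p = 0.010), and missed the threshold without siCTL replicate 2 (adjusted p = 0.090). LRIG1 shares 907 exon bases, 12.9% of its own, with SLC25A26 on the opposite strand, which missed the threshold (log2 fold change 0.11, edgeR adjusted p = 0.33). CBLB, the second CBL family ligase, was at 18.0 ± 0.842 and 17.2 ± 1.89 CPM (edgeR adjusted p = 0.64).

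Among the adaptors GRB2 was higher and GAB2 lower. GRB2, which links phosphorylated receptors to the RAS activator SOS1 (ENSG00000177885; chromosome 17, 75318076 to 75405709), read 113, 108 and 113 CPM in siCTL and 142, 154, 151 and 155 CPM in siDEPDC1. The groups were well separated, and GRB2 rose 1.35-fold from 111 ± 2.78 to 150 ± 5.88 CPM (log2 fold change 0.43 ± 0.057 SE, edgeR adjusted p = 1.7e-07). GAB2, a scaffold that recruits PI3K and the phosphatase PTPN11, read 37.1, 37.1 and 34.5 CPM in siCTL and 29.6, 26.1, 30.9 and 32.9 CPM in siDEPDC1. It fell 1.22-fold without overlap, from 36.2 ± 1.49 to 29.9 ± 2.83 CPM (log2 fold change -0.29 ± 0.078 SE, edgeR adjusted p = 0.0045). SHC1, an adaptor upstream of GRB2, at 167 ± 1.11 and 164 ± 5.19 CPM, and the scaffold GAB1, at 15.1 ± 1.43 and 15.3 ± 1.54 CPM, did not pass the threshold (edgeR adjusted p = 0.78 and 0.89).

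In the PI3K and AKT group both PI3K genes were lower, and AKT1 and AKT2 did not pass the threshold. PIK3CA, the catalytic subunit p110 alpha (ENSG00000121879; chromosome 3, 179148114 to 179240093), read 58.9, 54.9 and 60.7 CPM in siCTL and 43.8, 36.6, 34.9 and 35.9 CPM in siDEPDC1. Every siDEPDC1 value lay well below siCTL, the first library being the nearest, and PIK3CA fell 1.54-fold from 58.2 ± 2.96 to 37.8 ± 4.07 CPM (log2 fold change -0.62 ± 0.074 SE, edgeR adjusted p = 3.3e-08). The annotation gives PIK3CA 3403 exon bases, 35.8% of its own, in common with KCNMB3 on the opposite strand. KCNMB3 was at 8.72 ± 1.22 and 6.77 ± 2.04 CPM and did not pass the threshold (edgeR adjusted p = 0.073). Reads in the shared stretch cannot be assigned to either gene without the strand.

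PIK3R1, the regulatory subunit that binds phosphorylated receptors and adaptors (ENSG00000145675; chromosome 5, 68215720 to 68301821), read 17.8, 17.3 and 19.1 CPM in siCTL and 16.0, 13.1, 14.3 and 12.5 CPM in siDEPDC1. PIK3R1 fell 1.30-fold without overlap, from 18.1 ± 0.933 to 14.0 ± 1.57 CPM (log2 fold change -0.37 ± 0.097 SE, edgeR adjusted p = 0.0028). The CPM ratio of PIK3CA to PIK3R1, which compares libraries and not the genes' levels, ran from 3.17 to 3.32 in siCTL and from 2.44 to 2.88 in siDEPDC1. AKT1, the kinase downstream of PI3K, was at 184 ± 12.8 and 187 ± 11.8 CPM (log2 fold change 0.022, edgeR adjusted p = 0.81). AKT2 read 163, 162 and 146 CPM in siCTL and 171, 168, 170 and 184 CPM in siDEPDC1. Its groups did not overlap, but the log2 fold change of 0.14 just missed the threshold (edgeR adjusted p = 0.051). It passed without siDEPDC1 replicate 1, at 0.15 (adjusted p = 0.033), and under 4 other settings given with the processing alternatives.

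Levels between genes can be compared after division by exon length. In siCTL the members spanned 0.0277 (PDGFB) to 212 (AXL) CPM per kb. After AXL came ERRFI1 (93.6 ± 4.13), GAS6 (69.0 ± 6.06), AREG (49.0 ± 4.35) and EGFR (44.9 ± 2.35), where AREG and EGFR differed by less than the SD of AREG. In siDEPDC1 the values were 74.6 ± 6.59 for AREG and 36.9 ± 2.25 for EGFR, so AREG was then above EGFR by more than the spread of either. GAS6, at 64.7 ± 3.97, was below AREG there by less than the sum of their SDs. MET was at 31.5 ± 0.316 in siCTL, above TGFA (26.0 ± 0.648), and at 17.4 ± 1.13 in siDEPDC1, below TGFA (36.6 ± 0.731). PIK3CA was above PIK3R1 in both groups, at 6.13 ± 0.312 against 1.68 ± 0.0866 in siCTL and 3.98 ± 0.429 against 1.30 ± 0.146 in siDEPDC1. Exon length is the union over all annotated transcripts, which lowers the value of genes with many isoforms.

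**Figure D3:**
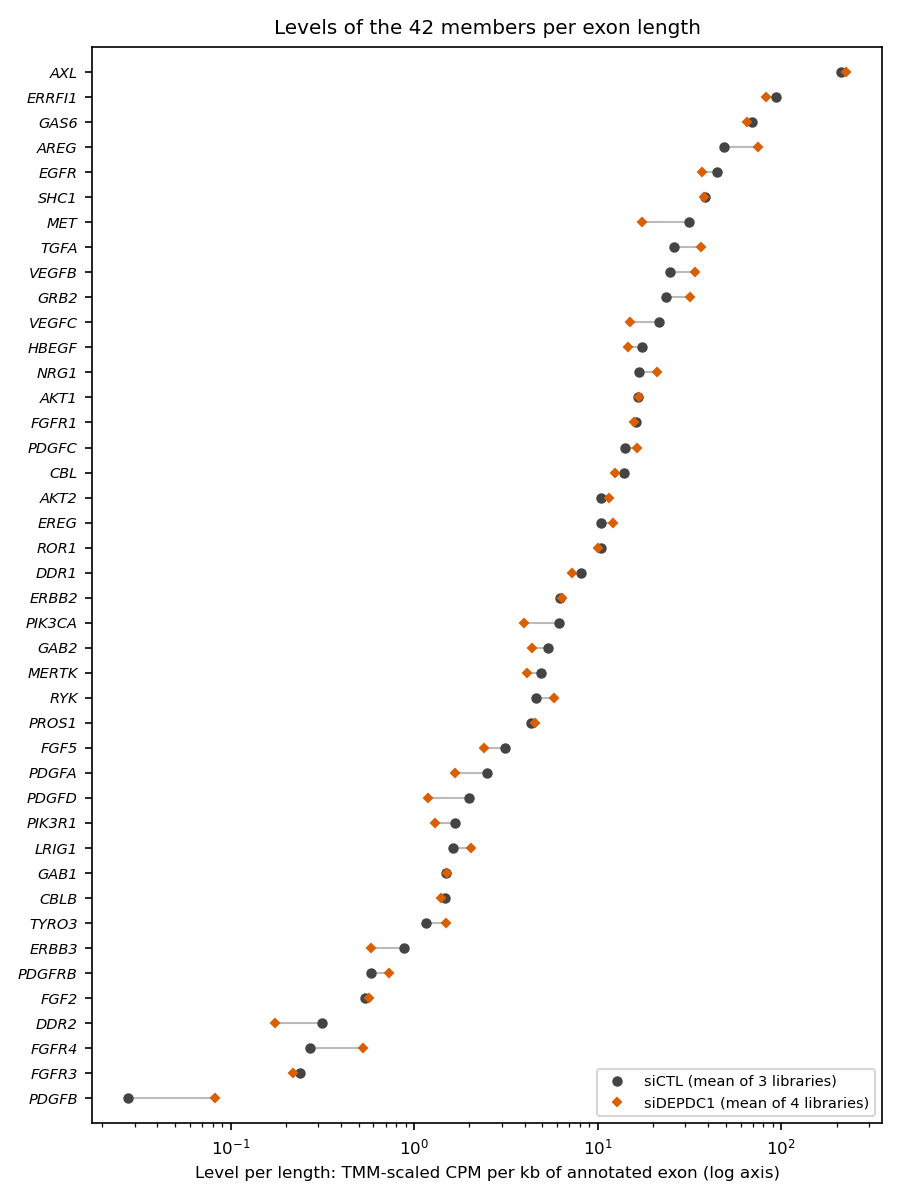
Mean TMM-scaled CPM per kb of annotated exon (log axis) of the 42 members in siCTL (circles, 3 libraries) and siDEPDC1 (diamonds, 4 libraries), ordered by siCTL. Levels run from 0.0277 for PDGFB to 212 for AXL in siCTL, and the lines for MET and PIK3CA stretch to the left while that for AREG stretches to the right.

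A further 136 genes of the same pathways, in 6 lists, were followed beside the members. Of these 102 were tested, with 33 lower and 22 higher. That is 53.9% called, where 34.4% of all tested genes were, 17.9% lower and 16.5% higher. The called share was 33.3% among other receptor tyrosine kinases, 44.4% among other ligands and 48.1% in the PI3K, AKT and MTOR list. It was 54.5% among other adaptors, 64.7% among other negative regulators and 88.9% among the 9 tested shedding genes. Lists were chosen with earlier results known, so these shares are descriptions. In the PI3K, AKT and MTOR list 11 of 27 tested genes were lower and 2 higher (median log2 fold change -0.064). RICTOR, the core subunit of MTOR complex 2, fell from 127 to 82.6 CPM (log2 fold change -0.62, edgeR adjusted p = 4.0e-09). INPP4B, a phosphatase that acts on PI3K lipids, fell from 28.4 to 19.2 CPM (log2 fold change -0.57, edgeR adjusted p = 6.9e-07). FOXO4 and PHLPP2, a transcription factor restrained by AKT and an AKT phosphatase, were the 2 higher genes, at 0.37 and 0.22 on the log2 scale (edgeR adjusted p = 0.0073 and 0.016). PHLPP2 missed the threshold without siCTL replicate 2 (adjusted p = 0.071).

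Other ligands were mostly higher where they passed, with 7 higher and 1 lower of 18 tested (median log2 fold change 0.089). PTN, pleiotrophin, rose from 11.9 to 30.0 CPM (log2 fold change 1.35, edgeR adjusted p = 3.7e-14), its relative MDK from 38.8 to 61.9 CPM (0.67, adjusted p = 8.9e-09), and VEGFA from 255 to 380 CPM (0.57, adjusted p = 1.2e-10). CSF1, the macrophage growth factor, fell from 510 to 299 CPM (log2 fold change -0.77, edgeR adjusted p = 7.7e-12). Of 25 other receptor tyrosine kinases only 9 were expressed enough to test. IGF1R fell from 97.7 to 69.1 CPM (log2 fold change -0.50, edgeR adjusted p = 4.7e-07) and PTK7, a kinase-dead receptor, rose from 162 to 199 CPM (0.29, adjusted p = 0.00010). MST1R, the MET relative, was also higher (0.20, edgeR adjusted p = 0.045), a call lost with DESeq2 (adjusted p = 0.097), with no count filter (0.14), without siCTL replicate 1 (0.15), without siCTL replicate 3 (0.15), without siDEPDC1 replicate 3 (0.059) and without siDEPDC1 replicate 4 (0.10).

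Among other adaptors and proximal effectors 9 were lower and 3 higher of 22 tested (median log2 fold change -0.093). PTPN11, the phosphatase that relays receptor signals to RAS, fell from 478 to 354 CPM (log2 fold change -0.43, edgeR adjusted p = 1.1e-07), and FRS2, the adaptor of FGF receptors, from 36.9 to 24.2 CPM (-0.61, adjusted p = 1.8e-07). GAB3 fell from 3.31 to 1.54 CPM (log2 fold change -1.12, edgeR adjusted p = 7.3e-05). The kinase SRC and the adaptor NCK2 rose by 0.36 and 0.43 on the log2 scale (edgeR adjusted p = 0.00010 and 0.00075). PLCG2, at 0.39 (edgeR adjusted p = 0.048), was not called with DESeq2 (0.13), with limma-voom (0.055), or without siCTL replicate 2 (0.11), without siCTL replicate 3 (0.19), without siDEPDC1 replicate 1 (0.11), without siDEPDC1 replicate 3 (0.071) and without siDEPDC1 replicate 4 (0.10).

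In the list of other negative regulators 6 were lower and 5 higher of 17 tested (median log2 fold change -0.017). Of the Sprouty genes, feedback inhibitors of receptor signalling, 1 was lower and 2 were higher: SPRY1 fell from 53.6 to 37.3 CPM (log2 fold change -0.52, edgeR adjusted p = 2.2e-07) and SPRY2 rose from 120 to 145 CPM (0.27, adjusted p = 0.00030). SPRY4 rose from 301 to 339 CPM (log2 fold change 0.17, edgeR adjusted p = 0.015), and missed the threshold without siCTL replicate 2 (adjusted p = 0.056). SPRED1, a related inhibitor, fell by 0.54 and the receptor phosphatase gene PTPRJ by 0.37 on the log2 scale (edgeR adjusted p = 4.1e-08 and 1.6e-06). SH3KBP1, which helps CBL internalize receptors, rose by 0.23, and SOCS3, a feedback inhibitor, by 0.26 (edgeR adjusted p = 0.0020 and 0.0041). SOCS3 just missed the threshold without siCTL replicate 3 (adjusted p = 0.050). The list counted 3 higher genes without siCTL replicate 2 or siCTL replicate 3.

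EGF family ligands are made as membrane proteins and released by proteases of the ADAM family. Of 9 tested shedding genes and their regulators 5 were lower and 3 higher (median log2 fold change -0.17). ADAM17, the main sheddase of AREG, TGFA and HBEGF, fell from 65.2 to 46.3 CPM (log2 fold change -0.49, edgeR adjusted p = 4.4e-07). ADAM9 fell from 380 to 274 CPM (log2 fold change -0.47, edgeR adjusted p = 1.6e-08), and RHBDF2, which carries ADAM17 to the surface, from 47.0 to 36.9 CPM (-0.35, adjusted p = 0.00039). ADAM19 rose by 0.23, the inhibitor TIMP3 by 0.18 and the proprotein convertase FURIN by 0.19 on the log2 scale (edgeR adjusted p = 0.0026, 0.015 and 0.035). TIMP3 lost its call without siCTL replicate 2 (adjusted p = 0.14). FURIN was not called when siCTL replicate 1 (adjusted p = 0.074), siCTL replicate 3 (0.14) or siDEPDC1 replicate 4 (0.18) was left out, nor with DESeq2 (0.065). So transcripts of AREG and TGFA were higher and those of their sheddase lower in the same libraries, and what this did to released ligand was not measured.

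**Figure D4:**
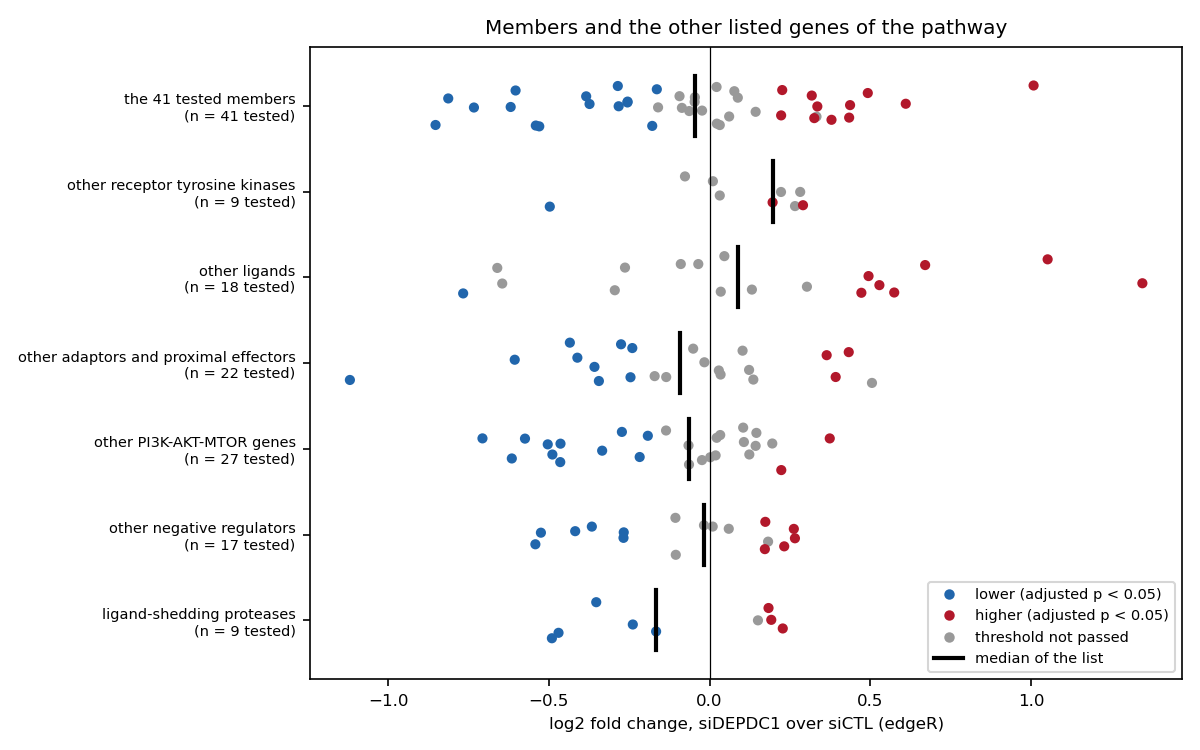
Log2 fold change of siDEPDC1 over siCTL for the 41 tested members and the tested genes of 6 other pathway lists; each point is a gene, blue lower, red higher and grey not past the threshold, vertical jitter carries no meaning, and the black line is the list's median. Medians run from -0.17 for the shedding genes to 0.20 for other receptor tyrosine kinases, and every list holds both blue and red points.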

How the data were processed

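For each of the 7 libraries the authors deposited unpooled read counts by Ensembl gene, whole numbers with no normalization. Per the labels' protocols, libraries came from TruSeq RNA kits with paired reads of 100 bases. Per the submitters' processing notes, STAR 2.7.9a, FastQC and DESeq2 were used with build GRCh38. Read counter, annotation release and strand setting: not given in the sources used here. Members and lists were chosen with earlier results of these data known. Symbols came from a table of gene IDs, coordinates and exon lengths from GENCODE release 29.

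Genes were filtered with filterByExpr and tested in R 4.3.3 by edgeR 4.0.16 (TMM factors, glmQLFit robust, glmQLFTest, two-sided, group as the only term), adjusted by Benjamini-Hochberg over 16583 genes at 0.05. The SE of a log2 fold change is the one implied by the F statistic. The fit was tested on simulated counts. All members are named, and called ones with a log2 fold change of at least 0.25 in size are given by library. Up to 3 called genes in each direction with the smallest adjusted p are named per other list. Some listed genes are not reported here. Genes named beyond this (HGF, FLT1, FLT4, KDR, PDGFRA, EGF, BTC, EPGN, NRG2, NRG3, NRG4, SPRY4 and genes that share exons with members) were chosen after their values were seen. GATAACT was searched in the 3' UTR of a single principal coding transcript per gene, where at least 50 bases long. Alternatives were limma-voom (limma 3.58.1), DESeq2 1.42.0, its size factors within edgeR, no TMM, no filter, a stricter filter (50 counts throughout 1 group), a replicate block, and leaving out each library. The share called among genes of at least 10 CPM was added after seeing the data.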

Additional observations from a re-analysis of the deposited data

Results flagged for a closer look

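MET in the 4 siDEPDC1 libraries was set apart because 1 library lay far from the other 3: siDEPDC1 replicate 1 was at 135 CPM and the others at 117 to 120 CPM, a gap that took 0.871 of the group's range. Without that library the log2 fold change of MET was -0.90, and over the 15 alternatives it ran from -0.90 to -0.82. Among 42 groups of 4 values examined (41 members and the library totals) this was the 1 past the critical value, and chance alone marks about 1 group in 20.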

How the results depend on the processing

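Of the 26 called members, 21 were called under every one of the 15 alternatives that tested them, and 13 of the 15 uncalled tested members stayed uncalled. Among these alternatives, leaving out siDEPDC1 replicate 4 and taking the libraries numbered 1 to 3 with no block are the same fit, counted under both names. Calls were lost for EREG, CBL, ERRFI1, MERTK and LRIG1 under some alternatives and gained for AKT2 and DDR1; no called member changed sign. AKT2 passed with DESeq2 size factors, library size alone, the stricter filter and limma-voom (adjusted p = 0.046, 0.018, 0.029 and 0.049). CBL missed the threshold with library size alone (adjusted p = 0.072). Members lower and higher numbered between 13 and 16 and between 9 and 12 over all alternatives. No sign was seen that replicate numbers pair the libraries: the correlations of same-numbered deviations over genes were -0.12, -0.042 and 0.0030. Those of libraries with different numbers ran from -0.18 to 0.11. With so few libraries this check cannot decide whether they were paired. With a replicate block on numbers 1 to 3, which uses 6 libraries, 14 members were lower and 11 higher, against 16 and 11 in these 6 libraries with no block. Under the block CBL and ERRFI1 missed the threshold (adjusted p = 0.054 and 0.050). Among other receptor tyrosine kinases, 2 genes were lower and 1 higher with no count filter, and 1 was higher with DESeq2, with the replicate block and in the same 6 libraries with no block. In the PI3K, AKT and MTOR list 1 was higher with no count filter. Without single libraries the higher genes numbered 1 to 2 among other receptor tyrosine kinases (1 when replicate 1 or 3 of siCTL, or 3 or 4 of siDEPDC1, was left out), 1 to 4 in the PI3K, AKT and MTOR list (1 without siCTL replicate 2, 4 without siDEPDC1 replicate 1) and 3 to 5 among other negative regulators. The stricter filter left 36 members to test. FGFR4, DDR2 and FGFR3, with few counts a library, are limited most by depth.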
